A study of Caenorhabditis elegans with 15 samples.

Results

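The cpr genes of Caenorhabditis elegans examined here, cpr-1, cpr-2, cpr-3, cpr-4, cpr-5 and cpr-6, encode cathepsin B-like cysteine proteases. They were chosen by gene name and are 6 of the 46906 genes in the expression table. All 6 passed the filter on low values that left 13743 genes for testing. RNA was sequenced from whole wild-type animals of the N2 Bristol strain on day 12 of adulthood. The 5 control libraries came from worms kept with the solvent DMSO at 0.05%, and 5 libraries each came from worms kept with an extract of Cuscuta chinensis seeds or of Eucommia ulmoides bark, both dissolved in DMSO and used at 30 µg/mL. Exposure began at the fourth larval stage, at 22 °C, and every group, the control included, also received carbenicillin and 100 µM FUdR, an inhibitor of DNA synthesis that stops offspring from developing. Each library was a pool of many animals, and the comparisons asked which transcripts the extracts changed in aged worms.

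Cathepsin B belongs to the papain family of cysteine proteases, which cut proteins with a cysteine in the active site, mostly in acidic compartments. Such enzymes are made as inactive precursors and are held in check by cystatins. In the nematode, cathepsin B-like proteases are best known from the intestine, where they take part in digestion of food and in protein breakdown in lysosomes.

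The genes lie apart from each other in the genome (WBcel235). Protease gene cpr-1 lies on chromosome V at 11975551 to 11976756 on the plus strand, with 3 exons. On the same chromosome, cpr-4 occupies 6614674 to 6615851 on the plus strand with 2 exons, cpr-5 occupies 1132598 to 1134036 on the minus strand with 3 exons, cpr-3 occupies 15296834 to 15298700 on the minus strand with 4 exons, and cpr-2 occupies 16532936 to 16534100 on the minus strand with 3 exons. Only cpr-6 lies on another chromosome, X, at 6607207 to 6609045 on the plus strand, with 8 exons. The exons of cpr-4 overlap a piRNA gene annotated on the opposite strand, and reads of the 2 genes cannot be told apart unless the counting used strand, which is not given in the sources used here. How fragments matching several related genes were counted is likewise not given.

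Levels are FPKM, which correct the number of fragments for gene length and library total and can be compared between genes. The libraries held 37920765 to 87238546 fragments, and the lowest of the 90 member values, cpr-2 in a DMSO library, rested on 19 fragments. In DMSO the order of mean FPKM was cpr-4 (56.6 ± 14.7, SD, n = 5), cpr-1 (22.4 ± 18.3), cpr-3 (19.8 ± 1.68), cpr-6 (15.7 ± 4.04), cpr-5 (3.87 ± 1.32) and cpr-2 (1.14 ± 0.755). The ranges of cpr-4 and cpr-1 overlapped, as did those of cpr-1, cpr-3 and cpr-6, whereas cpr-5 lay below them and cpr-2 below cpr-5. With C. chinensis the order became cpr-4 (127 ± 30.0), cpr-1 (113.3 ± 46.1), cpr-6 (49.7 ± 8.90), cpr-3 (30.6 ± 3.56), cpr-5 (20.1 ± 6.12) and cpr-2 (3.07 ± 1.56). There the ranges of cpr-6, cpr-3, cpr-5 and cpr-2 were separate, while that of cpr-1 overlapped those of both cpr-4 and cpr-6. In E. ulmoides libraries cpr-4 (56.7 ± 6.53) and cpr-1 (48.3 ± 9.62), whose ranges overlapped, were followed by cpr-6 (19.9 ± 2.74) and cpr-3 (17.01 ± 1.78), whose ranges overlapped, and by cpr-5 (6.26 ± 1.29) and cpr-2 (6.11 ± 2.11), whose ranges overlapped as well.

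**Figure D1:**
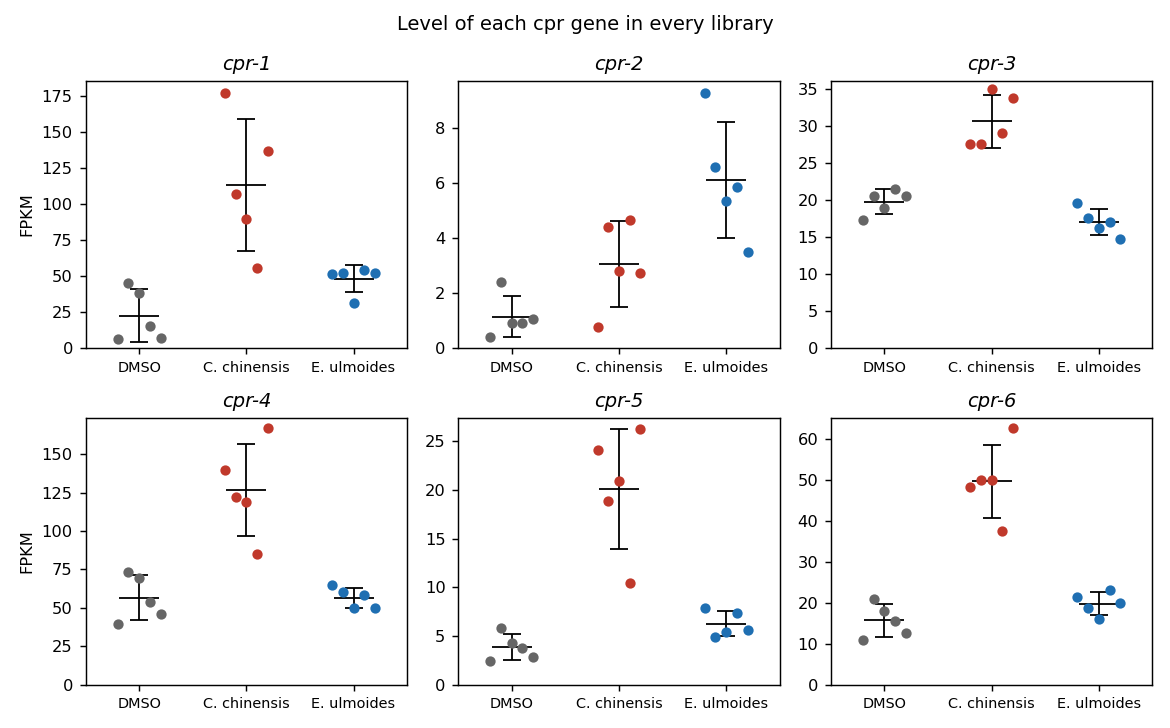
FPKM of each cpr gene in every library, replicates 1 to 5 from left to right within each group; the horizontal bar is the group mean and the whiskers are 1 SD (n = 5). The C. chinensis libraries lie above all DMSO libraries for cpr-1, cpr-3, cpr-4, cpr-5 and cpr-6, and the E. ulmoides libraries lie above all DMSO libraries for cpr-2.

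With C. chinensis, 5 of the 6 cpr genes were higher than in DMSO and none was lower. A gene was counted as changed when the adjusted p, from limma with Benjamini-Hochberg adjustment over all 13743 genes, was under 0.05 and the fold was above 1.5 in either direction. By this rule 16.9% of all genes tested were higher and 3.49% lower. The genes that rose were cpr-1, cpr-2, cpr-4, cpr-5 and cpr-6, and the median log2 fold change of the 6 genes was 1.25, against -0.09 over all genes tested. With E. ulmoides, 3 of the 6 were higher than in DMSO, cpr-1, cpr-2 and cpr-5, and none was lower. The background was 1.11% higher and 0.109% lower, and the medians were 0.65 for the 6 genes and 0.07 for all genes. Of these 3 calls only that of cpr-2 held under most alternative settings of the processing; those of cpr-1 and cpr-5 were lost in 20 and 23 of 29 settings. The comparisons with DMSO share the same 5 control libraries. Between the extracts, 3 genes, cpr-4, cpr-5 and cpr-6, were higher with C. chinensis (13.2% of all genes) and 1, cpr-2, was lower (9.56% of all genes), with a median of 0.83 for the 6 genes and -0.05 for all. Fold changes are on the log2(scaled FPKM + 0.5) scale, which understates the change of genes with low values. Without scaling between libraries the median of all genes in the last comparison moved to 0.22, and the direction of each cpr change named here stayed the same. The share of higher genes among all genes called depended on that scaling: it was 82.9% with C. chinensis and 91.1% with E. ulmoides against DMSO and 57.9% between the extracts, and without scaling it was 96.2%, 44.4% and 97.9%.

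**Figure D2:**
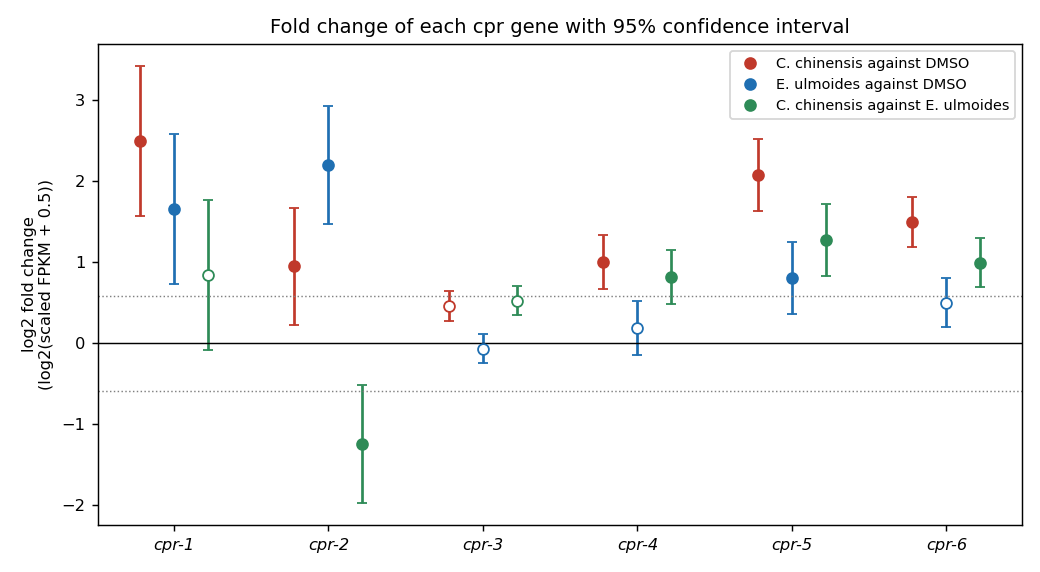
Fitted log2 fold change of each cpr gene in the 3 comparisons, with its 95% confidence interval; filled circles passed both the adjusted p and the fold limit, open circles did not, and dotted lines mark the fold limit of 1.5 in either direction. The gene cpr-2 is the only one whose change was larger with E. ulmoides (2.19) than with C. chinensis (0.95).

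The gut protease gene cpr-1 showed the widest range. In DMSO replicates 1 to 5 it stood at 6.30, 45.6, 38.2, 15.2 and 6.69 FPKM, with C. chinensis at 177, 107, 89.8, 55.9 and 137, and with E. ulmoides at 51.7, 52.4, 31.2, 54.2 and 52.0. In FPKM all 5 C. chinensis libraries lay above all DMSO libraries and, by 55.9 against 54.2, above all E. ulmoides libraries. Of the E. ulmoides libraries, 4 of 5 lay above the highest DMSO library. On the scaled log2 scale used for the fit, the 2 extract groups overlapped. There C. chinensis replicate 4 lay below E. ulmoides replicates 1, 2, 4 and 5, and all C. chinensis libraries stayed above all DMSO libraries. Against DMSO, cpr-1 rose with C. chinensis by 2.49 on the log2 scale (SE 0.44, adjusted p = 1.06e-04, exact permutation p = 0.00794, two-sided), the smallest p that 5 against 5 libraries allow. With E. ulmoides the change was 1.65 (SE 0.44, adjusted p = 0.0411, exact permutation p = 0.0238). The DMSO libraries differed 7.23-fold among themselves, from 322 to 4204 fragments, and the SD of their log2 values, 1.26, was larger than that of 99.6% of the genes tested. The E. ulmoides call was lost on leaving out any 1 of DMSO replicates 1, 4 and 5, C. chinensis replicates 2 to 5 or E. ulmoides replicates 1, 2, 4 and 5 (log2 change 1.25 to 1.58, adjusted p up to 0.199). Between the extracts the difference was 0.84 with a 95% interval of -0.09 to 1.77 (adjusted p = 0.101, exact permutation p = 0.0397). It passed in 7 of 29 alternative settings. Among these were leaving out DMSO replicate 2 (0.90, adjusted p = 0.0467) or C. chinensis replicate 4 (1.11, adjusted p = 0.0411). It also passed without scaling between libraries (1.15, adjusted p = 0.038) and after quantile normalization (1.15, adjusted p = 0.0355). The others were voom on recovered fragments (0.86, adjusted p = 0.038), a mean FPKM of at least 5 (1.08, adjusted p = 0.0427) and the 2 groups alone (0.92, adjusted p = 0.00508).

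The gene cpr-4, whose secreted product has been described as a signal from irradiated cells in C. elegans, had the highest mean level in each group. It stood at 39.4, 73.6, 69.7, 53.9 and 46.3 FPKM in DMSO, at 140, 122, 118.6, 85.2 and 167 with C. chinensis, and at 64.7, 60.1, 49.7, 58.6 and 50.2 with E. ulmoides. Every C. chinensis library was above every other library, and the E. ulmoides values lay within the DMSO range. The log2 change was 1.00 with C. chinensis against DMSO (SE 0.16, adjusted p = 3.69e-05) and 0.82 against E. ulmoides (SE 0.16, adjusted p = 1.97e-04). For E. ulmoides against DMSO it was 0.18 with a 95% interval of -0.15 to 0.52 (adjusted p = 0.515), and the sign turned when DMSO replicate 1 was left out (-0.0085, adjusted p = 0.986).

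The cathepsin B-like gene cpr-5 was low in DMSO, at 2.48, 5.83, 4.31, 3.83 and 2.88 FPKM. Its FPKM were 24.1, 18.9, 20.9, 10.4 and 26.3 in the C. chinensis libraries, and 7.89, 4.93, 5.43, 7.38 and 5.67 in the E. ulmoides libraries. The C. chinensis libraries were again all above the rest, and 2 of 5 E. ulmoides libraries exceeded the highest DMSO library. The log2 change with C. chinensis was 2.07 against DMSO (SE 0.21, adjusted p = 6.95e-07) and 1.27 against E. ulmoides (SE 0.21, adjusted p = 4.69e-05). With E. ulmoides it was 0.80 against DMSO (SE 0.21, adjusted p = 0.0398, exact permutation p = 0.0159). That call was kept without DMSO replicate 2 (adjusted p = 0.0478) or C. chinensis replicate 1 (0.0362) and was lost on leaving out any other library, where the log2 change was 0.61 to 0.85 and the adjusted p reached 0.221.

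The X-linked cpr-6 had the smallest adjusted p of the 6 genes with C. chinensis. Its FPKM were 11.1, 21.02, 18.1, 15.7 and 12.6 in DMSO, 48.4, 50.0, 50.0, 37.6 and 62.7 under C. chinensis, and 21.4, 18.7, 15.98, 23.2 and 20.1 under E. ulmoides. The lowest C. chinensis library was above the highest of both other groups, and the E. ulmoides and DMSO ranges overlapped. The log2 change with C. chinensis was 1.49 against DMSO (SE 0.14, adjusted p = 4.38e-07) and 0.99 against E. ulmoides (SE 0.14, adjusted p = 1.26e-05). With E. ulmoides against DMSO it was 0.50, with a 95% interval of 0.20 to 0.80, and missed both limits (adjusted p = 0.0529).

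The gene cpr-3 varied least between replicates. It gave 17.3, 20.6, 18.96, 21.5 and 20.5 FPKM in DMSO, 27.6, 27.5, 35.0, 29.0 and 33.8 under C. chinensis, and 19.5, 17.5, 16.2, 17.1 and 14.7 under E. ulmoides. The C. chinensis libraries formed a separate, higher group, and the other groups overlapped. Its log2 difference with C. chinensis was 0.46 against DMSO (SE 0.09, adjusted p = 1.78e-04) and 0.52 against E. ulmoides (SE 0.09, adjusted p = 3.92e-05), folds of 1.37 and 1.44 that stayed under the fold limit. Without scaling between libraries the difference from DMSO was 0.61 (adjusted p = 1.7e-05) and passed it. Against E. ulmoides it passed in 12 of 29 alternative settings, among them all 3 other scalings (0.61 to 0.83, the highest on unscaled FPKM) and leaving out C. chinensis replicate 2 (0.62) or 4 (0.59), or E. ulmoides replicate 1 (0.63) or 2 (0.59). For E. ulmoides against DMSO the value was -0.07, with a 95% interval of -0.25 to 0.11 (adjusted p = 0.678).

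The gene cpr-2 had the lowest level in DMSO and the opposite order of the extracts. Its FPKM were 0.411, 2.42, 0.919, 0.917 and 1.05 in DMSO, 0.770, 4.39, 2.80, 4.65 and 2.73 under C. chinensis, and 9.27, 6.60, 5.33, 5.84 and 3.49 under E. ulmoides. All E. ulmoides libraries were above all DMSO libraries, and the C. chinensis libraries overlapped both groups, with replicate 1 below the DMSO mean. The log2 change with E. ulmoides was 2.19 (SE 0.34, adjusted p = 0.00579, exact permutation p = 0.00794), the highest of all 13743 genes tested in that comparison. It passed on leaving out any single library (1.95 to 2.36, adjusted p up to 0.039) and missed the limit without the filter on low values (2.14, adjusted p = 0.0565); with genes kept only at a mean FPKM of at least 5 it was not tested. With C. chinensis it was 0.95 (SE 0.34, adjusted p = 0.0219, exact permutation p = 0.0873), and the call was lost without DMSO replicate 1 (0.75, adjusted p = 0.069), C. chinensis replicate 2 (0.79, adjusted p = 0.0629) or C. chinensis replicate 4 (0.76, adjusted p = 0.0677), after quantile normalization (0.63, adjusted p = 0.119) and without the filter on low values (0.89, adjusted p = 0.0832). With C. chinensis, cpr-2 was lower than with E. ulmoides by -1.25 on the log2 scale (SE 0.34, adjusted p = 0.00395, exact permutation p = 0.0238).

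On the scaled log2 scale, groups did not overlap for 5 of the 6 genes in C. chinensis against DMSO, where 23.1% of all genes were separate and higher. For E. ulmoides against DMSO only cpr-2 was separate, against 7.86% of all genes, and between the extracts 4 genes, cpr-3 to cpr-6, were separate and higher with C. chinensis, against 20.8%.

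Within groups, several of the genes were high or low in the same libraries. In DMSO, cpr-1, cpr-4, cpr-5 and cpr-6 each had the same order, with replicate 2, the DMSO library with the most fragments, highest, then 3, 4 and 5, and replicate 1 lowest. With C. chinensis the same 4 genes were all lowest in replicate 4, the library of that group with the most fragments, and 3 of them were highest in replicate 5. Over the 15 libraries Pearson's r was 0.98 for cpr-5 with cpr-6, 0.95 for cpr-4 with cpr-6 and 0.86 for cpr-1 with cpr-4, and for the deviations from the group means it was 0.87, 0.89 and 0.87. Over the 15 libraries cpr-2 had r of 0.43 to cpr-1, 0.11 to cpr-4 and -0.02 to cpr-3. Within groups its coefficients differed in sign: in DMSO it had r of 0.67 to cpr-1, 0.78 to cpr-4, 0.87 to cpr-5 and 0.83 to cpr-6, whereas these were -0.78, -0.51, -0.63 and -0.20 among the C. chinensis libraries and 0.09, 0.82, 0.44 and 0.12 among the E. ulmoides libraries, over 5 libraries each. With E. ulmoides cpr-2 and cpr-3 had the same order of libraries (r = 0.98). These coefficients describe libraries that share groups and scaling, and they carry no test.

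**Figure D3:**
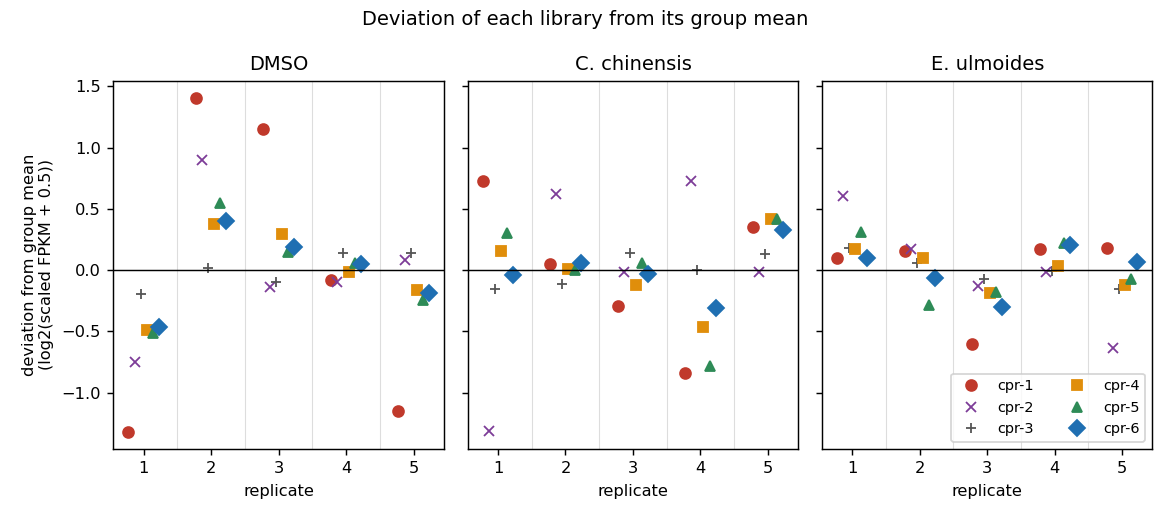
Deviation of each library from the mean of its group, on the log2(scaled FPKM + 0.5) scale, for the 6 cpr genes by replicate. In DMSO, replicates 2 and 3 lie above the mean and replicates 1 and 5 below it for cpr-1, cpr-4, cpr-5 and cpr-6, with cpr-1 deviating farthest.

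Ratios within a library, which do not depend on scaling between libraries, separated groups for some pairs of genes. Of the 15 pairs, 5 had ranges that were separate between C. chinensis and DMSO, 7 between E. ulmoides and DMSO and 4 between the extracts, and 6 pairs, such as cpr-5 to cpr-6, separated no groups. The pairs share the same 6 genes, so these counts are not independent. Every pair separate between the extracts held cpr-2, as did several of those between E. ulmoides and DMSO. The share of separate pairs among all genes was not computed. The log2 ratio of cpr-4 to cpr-6 was 1.85 in DMSO (SD 0.06), 1.33 with C. chinensis (SD 0.14) and 1.52 with E. ulmoides (SD 0.17), and both extract groups lay below the DMSO range. The ratio of cpr-4 to cpr-5 was also below the DMSO range in both extract groups, with means of 3.90, 2.69 and 3.19. That of cpr-1 to cpr-4 was above it in both, with means of -1.76, -0.23 and -0.25. The ratio of cpr-2 to cpr-4 was -5.82 in DMSO, -5.57 with C. chinensis and -3.28 with E. ulmoides, whose libraries were separate from both other groups. Summed over the 6 genes, the level was 76.9 to 169 FPKM in DMSO, 223 to 430 with C. chinensis and 124 to 175 with E. ulmoides. The mean share of cpr-4 in that sum was 48.2%, 37.0% and 36.9%, that of cpr-1 was 16.4%, 32.02% and 31.1%, and that of cpr-2 was 0.914%, 1.02% and 3.93%. In both extract groups cpr-4 made up a smaller mean share and cpr-1 a larger one than in DMSO.

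**Figure D4:**
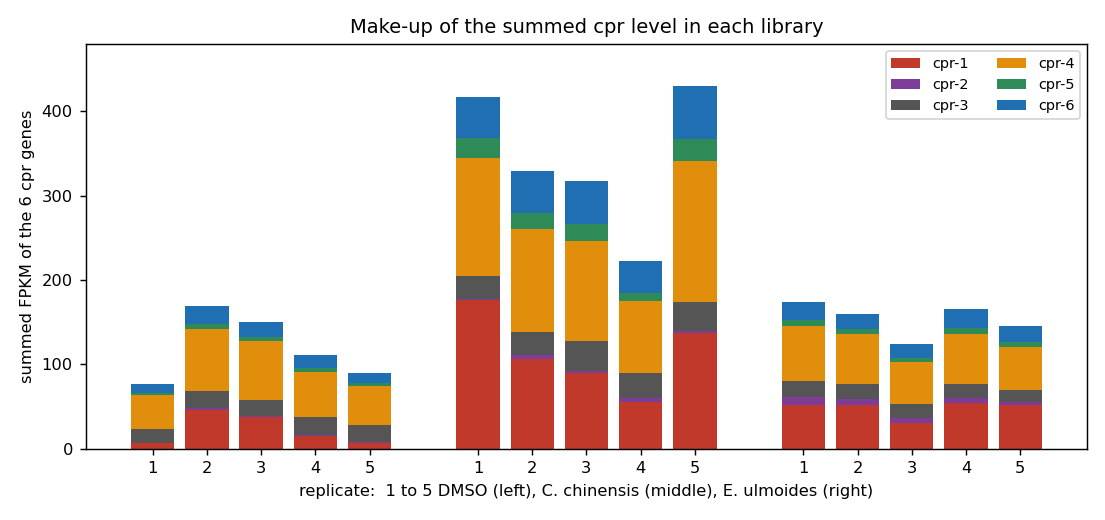
Summed FPKM of the 6 cpr genes in each library, stacked by gene. The C. chinensis bars reach 223 to 430 FPKM and the E. ulmoides bars 124 to 175, a range that overlaps the DMSO bars at 76.9 to 169.

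For each cpr gene the 3 other tested genes with the highest Pearson's r over the 15 libraries were listed. For cpr-1 they were spp-2 (r = 0.985), a saposin-like gene, lys-4 (0.983), a lysozyme gene, and F57F5.1 (0.982), a further papain-family gene named cpr-9 in the current annotation. F57F5.1 lies 26296 bases beyond the end of cpr-1 on the same strand, at 12003053 to 12004584 of chromosome V. Its mean FPKM was 16.6 in DMSO, 78.2 with C. chinensis and 28.4 with E. ulmoides. It followed cpr-1 within groups as well, with r of 0.981 for the deviations.

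For cpr-5 the nearest genes were T04F8.8 (0.990), C17F4.7 (0.989) and the collagen gene col-95 (0.984), and for cpr-6 they were the transthyretin-like genes ttr-16 (0.994) and ttr-24 (0.993) and F29B9.8 (0.989). For cpr-4 they were Y69A2AL.2 (0.978), nspc-20 (0.972) and ZC416.6 (0.971). For cpr-3 they were the JNK-like kinase gene kgb-1 (0.978), the innexin gene inx-15 (0.976) and the glutathione transferase gene gsto-3 (0.974). The coefficients of cpr-2 were lower, at 0.930 for C02F12.5, 0.929 for H31G24.1 and 0.920 for icmt-1, a prenylcysteine methyltransferase gene. Among these 3 listed for each, the 6 genes had no nearest gene in common over the 15 libraries. For the deviations from group means, F57F5.1 was among the 3 nearest of both cpr-1 and cpr-4. Likewise Y69A2AL.2 was among the 3 nearest of both cpr-4 and cpr-5.

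Other papain-family cysteine protease genes also rose with C. chinensis. Of 21 in the table, 13 were tested, and 8 were higher and none lower than in DMSO, with a median of 0.79 against -0.09 for all genes. Of all genes tested, 16.9% were higher and 3.49% lower in that comparison. The highest were F57F5.1 (log2 change 2.24, adjusted p = 2.35e-05), Y40H7A.10 (1.65, 7.22e-06), R09F10.1 (1.33, 3.76e-07) and cpl-1 (1.099, 8.13e-08), the cathepsin L gene, whose mean went from 323 to 778 FPKM. With E. ulmoides limma counted 0 of the 13 as changed, while 6 had an unadjusted p under 0.05, all higher, and voom on the recovered fragments called 2. Of the cystatin genes, which encode inhibitors of these proteases, cpi-1 rose with C. chinensis (1.00, SE 0.14, adjusted p = 9.94e-06), from 832 to 1861 FPKM, and cpi-2 stayed under the fold limit (0.34, adjusted p = 0.00206). With E. ulmoides cpi-1 stood at 0.43 (adjusted p = 0.073) and cpi-2 at 0.18 (adjusted p = 0.204).

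**Figure D5:**
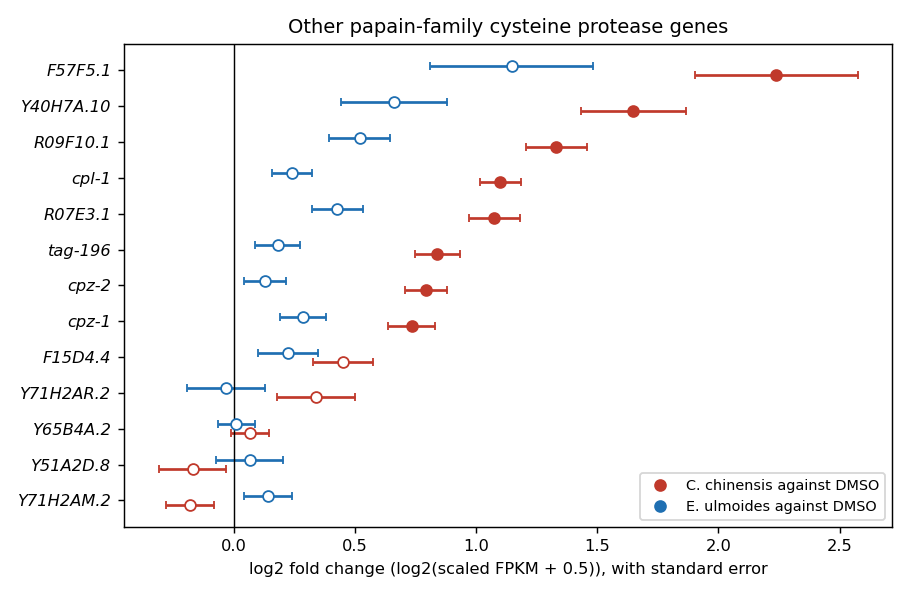
Log2 fold change against DMSO, with its standard error, of the 13 other papain-family protease genes tested; filled circles passed the adjusted p and the fold limit. With C. chinensis 8 genes passed, all higher, led by F57F5.1 at 2.24, and with E. ulmoides none did. Of all genes tested, 16.9% were higher with C. chinensis and 1.11% with E. ulmoides.

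Among proteases of another class, 9 of 19 aspartyl protease genes were tested, of which 8 were higher with C. chinensis and 4 with E. ulmoides than in DMSO, and none was lower. Of all genes tested, 16.9% were higher with C. chinensis and 1.11% with E. ulmoides. With C. chinensis asp-17 (2.10), asp-2 (1.91), asp-1 (1.78) and asp-5 (1.42) led on the log2 scale. With E. ulmoides the genes were asp-1 (1.05, adjusted p = 0.0167), asp-5 (0.97, 0.0117), asp-3 (0.62, 0.0237) and asp-6 (0.61, 0.00599), a count that ran from 0 to 6 over the 29 alternatives. Of 23 tested genes for other lysosomal hydrolases, 16 were higher with C. chinensis and none lower, led by the thioesterase gene ppt-1 (1.45), the glucosylceramidase gene gba-3 (1.31), the lipase gene lipl-5 (1.25) and F41C3.5 (1.23), a serine carboxypeptidase gene. With E. ulmoides only the acid ceramidase gene asah-1 was higher (0.64, adjusted p = 0.0412), and voom called 0. This count of 1 moved, within 0 to 2, in 26 of the 29 alternatives.

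Of 6 regulator genes, mxl-3 (1.01, adjusted p = 7.43e-07) and hlh-30 (0.66, adjusted p = 7.03e-07), which encode transcription factors with opposite roles in lysosomal gene control, were higher with C. chinensis than in DMSO. This count of 2 of 6 stands beside 16.9% of all genes, and it ran from 1 to 5 over the 29 alternatives. With E. ulmoides limma counted 0 of the 6 as changed, 1 had an unadjusted p under 0.05 and was lower, and voom called 0. Of the 14 genes for the proteasome core, which degrades proteins outside lysosomes, limma counted 0 as changed in each comparison with DMSO. There, 11 had an unadjusted p under 0.05 with C. chinensis, all lower, and 9 with E. ulmoides, all higher, and voom called 0 in both. On unscaled FPKM these counts were 2, both lower, and 0, and the median log2 change with E. ulmoides turned from 0.14 to -0.01. With C. chinensis pas-3 (-0.38, adjusted p = 2.20e-04) and pas-5 (-0.29, adjusted p = 8.00e-04) had the smallest p, under the fold limit.

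Markers of the tissues in a whole worm were read in the same libraries. The summed FPKM of 10 intestinal markers was 232 to 268 in DMSO, 284 to 342 with C. chinensis and 203 to 217 with E. ulmoides, and 2 of 10 were higher with C. chinensis than in DMSO, beside 16.9% of all genes, and 7 of 10 higher than with E. ulmoides. That of 8 muscle markers was 49.6 to 73.9, 120 to 205 and 58.8 to 71.9, with 6 of 8 higher than in DMSO and 8 of 8 higher than with E. ulmoides. That of 6 hypodermal markers was 29.2 to 70.3, 90.2 to 309 and 39.1 to 57.3, with 2 of 3 tested higher, and that of 12 germline markers was 2333 to 2437, 1706 to 2197 and 1995 to 2378, with 2 lower. Of all genes tested, 3.49% were lower with C. chinensis than in DMSO, and 13.2% were higher than with E. ulmoides. At an unadjusted limma p under 0.05, all 12 germline markers were lower with C. chinensis than in DMSO. Of the 10 intestinal markers, 9 were higher and 1 lower at that limit. No marker of these lists was at 0 in every library, and the summed level of 10 neuronal markers was 393 to 419, 525 to 608 and 375 to 425. Of these 10, limma counted 0 as changed with C. chinensis against DMSO, while 7 had an unadjusted p under 0.05, all higher, and voom called 2. Within DMSO the muscle sum had the same order of libraries as cpr-1, cpr-4, cpr-5 and cpr-6, from 73.9 in replicate 2 to 49.6 in replicate 1. The hypodermal sum, also highest in replicate 2 and lowest in replicate 1, spanned 2.41-fold. The intestinal sum spanned 1.15-fold and rested mostly on erm-1 and act-5 (DMSO means of 108 and 76.0 FPKM). The part of these tissues in the cpr results was not tested, and in RNA from whole animals fewer cells of a type and less RNA per cell cannot be told apart.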

How the data were processed

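The authors aligned paired-end reads with HISAT2 to WBcel235 and deposited FPKM values per gene, in one table of 15 libraries; the HISAT2 version, the counting tool and the annotation release are not given in the sources used here. For all 26686 genes above 0, whole fragments were recovered within 0.0001 from FPKM, library total and gene length. The totals were inferred from the FPKM of piRNA genes, taken as 21 nucleotides long. The length was the annotated one where that gave whole fragments, as for 10628 genes, and otherwise the shortest length tried that did. The fit within 0.0001 is therefore no check of those lengths. A gene was kept where 5 or more libraries reached an FPKM of 1. Values were scaled by the trimmed mean of M values over the genes kept, with the outer 30% of M values and 5% of A values removed on either side, and fitted as log2(FPKM + 0.5) with limma 3.58.1 (lmFit, eBayes with trend; R 4.3.3), all 3 groups together and no block. Groups came from the deposited labels. They call the replicates biological without saying whether these were separate cultures, so p-values measure the spread between these libraries. Single genes were also compared by two-sided exact permutation over 252 splits. The fit was tested on simulated data for C. chinensis against DMSO, with 50 genes changed at each fold. It called 98% of genes raised 2-fold or 4-fold and 88% of those lowered to 0.5 or 0.25 times. Genes that failed the filter counted as not called, and 5 unchanged genes were called.

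The named genes were the 6 members, the 3 nearest genes of each by r, and in each list up to 4 changed genes with the largest change with C. chinensis, any changed with E. ulmoides, or else up to 2 with the smallest p; cpi-2, the other gene of its list, was added after its values were seen. Members and lists were chosen with earlier results of these data known. Gene positions came from Ensembl release 115 and gene names from the table. Alternatives were other scalings, pseudocounts, filters and blocks, voom on fragments, each group pair alone, no fold limit and leaving out each library. No sequences were used here, and a planned promoter motif search was not run.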

Additional observations from a re-analysis of the deposited data

Results flagged for a closer look

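In E. ulmoides replicate 3, cpr-1 was far below the other 4 libraries of its group (31.2 FPKM against 51.7 to 54.2), and on the scaled log2 scale the gap to the next library was 0.905 of the group's whole range. Of 18 gene and group combinations examined in this way it was the only such library, and chance flags about 1 in 20.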

How the results depend on the processing

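For E. ulmoides against DMSO the number of changed cpr genes, 3, fell to 1 on unscaled FPKM, after median-of-ratios or quantile normalization, and with the replicate block, the code-number block or scaling factors from all genes above 0 (the last chosen after seeing the data). It fell to 0 without a filter on low values and at a mean FPKM of at least 5, where cpr-2 was not tested. Leaving out each library in turn gave 1 to 3. The 4 libraries with the most fragments, left out together after seeing the data, gave 2. For C. chinensis against DMSO the count of 5 became 4 to 6 and between the extracts the count of 4 became 4 to 6, over 29 alternatives each. The one sign change was cpr-4 with E. ulmoides against DMSO, -0.0085 without DMSO replicate 1; over all libraries left out in turn its log2 change ran from -0.0085 to 0.2555.

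The labels do not say whether replicate numbers pair the libraries. Correlations of same-numbered libraries' deviations over all genes tested ran from -0.245 to 0.061, which cannot exclude a pairing for single genes. With the code-number block the adjusted p of cpr-2 fell to 0.00129 for C. chinensis against DMSO (log2 change 0.77). Between the extracts it fell to 0.000652 (log2 change -0.81). With the replicate block the calls of cpr-1 (adjusted p = 0.089) and cpr-5 (adjusted p = 0.1) with E. ulmoides were lost and no other cpr call changed. Of 1044 counts over the fixed lists and alternatives, many of them 0 throughout, 85 moved by more than 1.5 times or to or from 0. With E. ulmoides against DMSO, the count of higher lysosomal hydrolases moved in 26 of 29 alternatives and that of aspartyl proteases in 19. The count of cystatin genes higher with C. chinensis than with E. ulmoides moved in 18 of 29. Depth limited cpr-2 most, at 19 to 202 fragments in DMSO.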
